A study of Mus musculus with 2 samples.

Results

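The genes described here are Malat1, Neat1, Sfpq, Nono, Pspc1, Rbm14 and Tardbp, which encode an abundant nuclear long noncoding RNA, the RNA scaffold of paraspeckles, and proteins that bind it. They were chosen by gene symbol, a rule that uses no measured value, though earlier results of these data were known. They are 7 of the 55536 annotated genes in the deposited gene-level tables, with 58 annotated transcripts. The study sequenced ribosomal RNA-depleted total RNA from macrophages that were grown from bone marrow precursors of C57BL/6J mice. There was 1 group of 2 biological replicates. Its cells had received Lipid A, the Toll-like receptor 4 agonist of bacterial lipopolysaccharide, at 100 ng/ml for 12 h, had then been washed and left without it for 12 h, and were harvested at 0 min of a renewed dose of 100 ng/ml. The RNA came from the fraction that the labels call nucleoplasmic in one place and nuclear in another. Replicate 1 started from 1 µg of RNA and replicate 2 from 500 ng, so the amount of input cannot be told apart from the replicate. Both came from separate biosamples under a single donor entry, and age and sex were not collected. With no second condition, levels within the libraries and the spread between them are described, without p-values.

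Malat1 is retained in the nucleus, where it gathers at nuclear speckles rich in splicing factors. Its 3′ end is not made by polyadenylation: RNase P cuts ahead of a tRNA-like structure that is released as the small cytoplasmic mascRNA, and the new end of Malat1 folds into a protective triple helix. Neat1 is transcribed from a neighbouring gene as a short polyadenylated transcript and a long transcript that ends in the same way as Malat1, and the long transcript builds paraspeckles, nuclear bodies assembled with Sfpq, Nono, Pspc1 and other RNA-binding proteins.

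Expected counts summed to 22907877 in replicate 1 and 18612405 in replicate 2. The 8 macrophage markers examined all lay at 10 TPM or above in both libraries (TPM is counts divided by transcript length and scaled to the same total in every library), with summed levels of 2768 and 2243 TPM in replicates 1 and 2, and Fcgr1 (166 and 67.2 TPM) was the only one that differed 2-fold or more. All 18 markers of neutrophils, lymphocytes, erythroid and stromal cells were below 1 TPM in the gene-level tables, with sums of 1.42 and 1.03 TPM in replicates 1 and 2, and 5 of them had 0 counts. In the second quantification, a further deposited estimate of counts and TPM, the T-cell marker Cd3d had 1.76 and 4.20 TPM, and the other 17 were below 1 TPM. The biological coefficient of variation between the libraries was 0.186.

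Malat1 took more expected counts than any other gene in both libraries, while by TPM it ranked 6 in replicate 1 and 7 in replicate 2. Malat1 (ENSMUSG00000092341.3, a lincRNA gene at chr19:5795690-5802672 on the minus strand of mm10) had 2560692 expected counts in replicate 1 and 1903922 in replicate 2. These were 11.2% of all counts in replicate 1 (exact binomial 95% interval 11.165 to 11.191%) and 10.2% in replicate 2 (10.216 to 10.243%), with a mean of 10.7% ± 0.671 (SD, n = 2). Such intervals cover counting error only, and here the difference between the libraries exceeded them. In bulk RNA such as this, fewer cells that express a gene and less RNA per cell cannot be told apart. Of the counts of all long noncoding genes, Malat1 held 76.0% in replicate 1 and 78.4% in replicate 2.

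The sequences below are those that separate the annotated Malat1 transcripts from one another, and the values that follow turn on them. Malat1-201 is a single exon of 6983 bases. Malat1-203, of 485 bases, lies at the 5′ end and removes an intron of 271 bases (chr19:5801967-5802237). Malat1-202, of 556 bases, and Malat1-204, of 656 bases, lie at the 3′ end and remove introns of 1218 bases (chr19:5795786-5797003) and 603 bases (chr19:5795786-5796388) that end at the same acceptor. Each line gives 20 bases on either side of the splice junction, from the GENCODE transcripts on the minus strand of mm10, with the downstream exon in capitals.
Malat1-203: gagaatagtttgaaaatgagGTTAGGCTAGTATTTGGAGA
Malat1-202: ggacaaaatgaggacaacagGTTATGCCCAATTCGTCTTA
Malat1-204: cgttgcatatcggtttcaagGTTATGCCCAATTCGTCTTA

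Only a few sequence words tell the short transcripts from the unspliced one. Of all 31-base words, 26 in Malat1-203, 25 in Malat1-202 and 26 in Malat1-204 occur in no other Malat1 transcript, against 5487 in Malat1-201. Malat1-201 received 2513812 expected counts in replicate 1 and 1791445 in replicate 2, or 98.2% and 94.1% of the counts of the gene. Malat1-203 received 46880 and 82443 counts, or 1.83% and 4.33%. Malat1-202 had 0 counts in replicate 1 and 12036 in replicate 2, and Malat1-204 had 0 and 17999. The unspliced transcript thus held most counts in both libraries, and replicate 2 alone gave counts to the pair spliced at the 3′ end. The second quantification gave the same contrast, with 9.29 and 37560 counts for Malat1-202 and 0 and 34098 for Malat1-204. No fold is given, since the assignment of reads to these transcripts is uncertain.

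The small transcripts weighed far more in TPM, which divides counts by effective length. Malat1-201 had 12831 and 10798 TPM in replicates 1 and 2, or 66.6% and 41.0% of the TPM of the gene. Malat1-203 had 6426 and 12437 TPM, while Malat1-202 had 0 and 1439 TPM and Malat1-204 had 0 and 1664 TPM. The effective length given for the whole gene was 4581 bases in replicate 1 and 2949 bases in replicate 2. The TPM of Malat1 was 19257 in replicate 1 and 26338 in replicate 2 (22797 ± 5007, SD, n = 2). The libraries therefore ranked oppositely by the 2 scales. The log2 ratio of replicate 1 over replicate 2 was 0.17 for scaled counts (95% counting interval 0.169 to 0.175) and -0.45 for TPM. In the second quantification Malat1 had 9063 and 18327 TPM, while its log2 ratio of counts was 0.18.

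**Figure D1:**
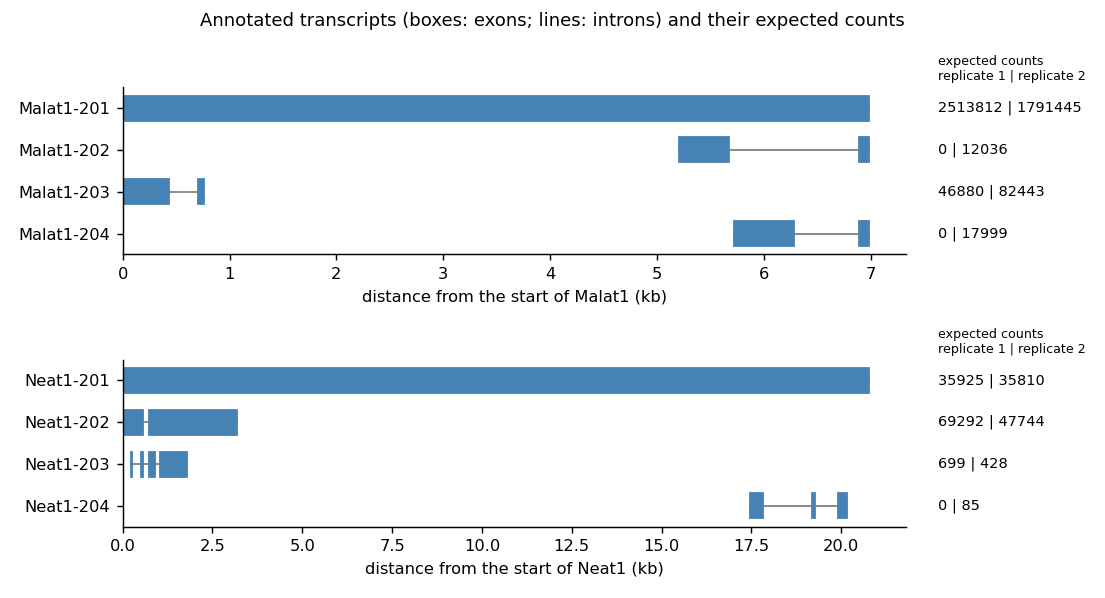
Exons (boxes) and introns (lines) of the annotated transcripts of Malat1 (upper panel) and Neat1 (lower panel), drawn to scale in kb from the 5′ start of each gene, with the expected counts of each transcript in replicate 1 and replicate 2 printed at the right. Malat1-202 and Malat1-204 share their last exon and have 0 counts in replicate 1, and Neat1-202 covers only the 5′ part of Neat1-201.

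A gene on the other strand lies near the 5′ end of Malat1, within the span of Malat1-203. It covers the whole intron that Malat1-203 removes. Gm37376 (chr19:5801941-5802393, plus strand, an unverified gene model) shares 6.02% of the 31-base words of Malat1 on the opposite strand. It had 0 counts in both libraries of the gene-level tables, but 24570 counts in replicate 1 and 47707 in replicate 2 of the second quantification (1354 and 3046 TPM). The use of strand in counting is not given in the sources used here, so the level of Gm37376 and the part of Malat1 under it are uncertain. Gm27694, annotated inside Malat1 on the same strand, had 0 counts in both libraries and both quantifications.

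Neat1 was also among the leading long noncoding RNAs, and its share of counts was close between the libraries. Neat1 (ENSMUSG00000092274.3, chr19:5824708-5845478, minus strand) had 105916 expected counts in replicate 1 and 84067 in replicate 2, which were 0.462% and 0.452% of all counts (0.457% ± 0.00755, SD, n = 2) and the 15th highest count in each library. Its level was 952 and 798 TPM in replicates 1 and 2 (875 ± 109 TPM), and 353 and 420 TPM in the second quantification. The log2 ratio of scaled counts, replicate 1 over replicate 2, was 0.08 (0.0645 to 0.0907). By mean TPM, Neat1 was number 4 of 10155 long noncoding genes after Malat1, a lincRNA entry of Rmrp and Gm26917, and by mean counts it was number 3 after Malat1 and Gm26917. Gm26917 had 174598 and 38995 counts in replicates 1 and 2 (1943 and 511 TPM), so Neat1 was below it in replicate 1 and above it in replicate 2. By TPM, Gm42418 was also above Neat1 in replicate 1, with 999.6 TPM, and below it in replicate 2, with 390 TPM. A level of at least 1 TPM in both libraries was reached by both Malat1 and Neat1, beside 10.5% of long noncoding genes.

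Malat1 had 24.2 times as many counts as Neat1 in replicate 1 and 22.6 times as many in replicate 2. Per length, the difference of Malat1 minus Neat1 in log2(TPM + 0.1) was 4.34 in replicate 1 and 5.04 in replicate 2 (4.69 ± 0.50, SD, n = 2), and 5.07 ± 0.54 in the second quantification. The difference exceeded the spread between libraries in both. Counts per kb of the longest transcript put it at 6.12.

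The 2 main Neat1 transcripts start together and differ in where they end. Neat1-202, of 3004 bases, removes an intron of 166 bases (chr19:5844759-5844924) and ends after a polyadenylation signal. Neat1-201 is a single exon of 20771 bases that reaches 17599 bases further. The first line gives the junction of Neat1-202 with its second exon in capitals. The second gives its last 60 bases (chr19:5842307-5842366, minus strand, mm10) with the motif AATAAA in capitals, which begins 20 bases from the end.
Neat1-202 junction: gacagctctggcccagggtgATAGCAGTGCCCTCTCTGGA
Neat1-202 end: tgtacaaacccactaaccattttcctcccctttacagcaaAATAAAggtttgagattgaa

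No 31-base word belongs to Neat1-202 alone among Neat1 transcripts, and 99.0% of its words also occur in Neat1-201, so that reads over the shared 5′ part are divided by a model. Neat1-202 was given 69292 counts in replicate 1 and 47744 in replicate 2, and 862 and 698 TPM. Neat1-201 was given 35925 and 35810 counts, and 60.3 and 71.1 TPM. In unscaled counts per kb of transcript, Neat1-202 had 23067 in replicate 1 and 15893 in replicate 2, and Neat1-201 had 1730 and 1724. After scaling for library size, the log2 ratio of replicate 1 over replicate 2 was -0.25 for Neat1-201 and 0.28 for Neat1-202, so the pair moved in opposite directions by similar amounts. In the second quantification these ratios were -0.20 and 0.23. As a share of TPM, Neat1-201 made up 6.33% in replicate 1 and 8.91% in replicate 2 (7.62% mean), and as a share of counts 33.9% and 42.6%. The minor Neat1-203 had 699 and 428 counts, and Neat1-204, inside the 3′ part of the long transcript, had 0 and 85.1 counts.

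**Figure D2:**
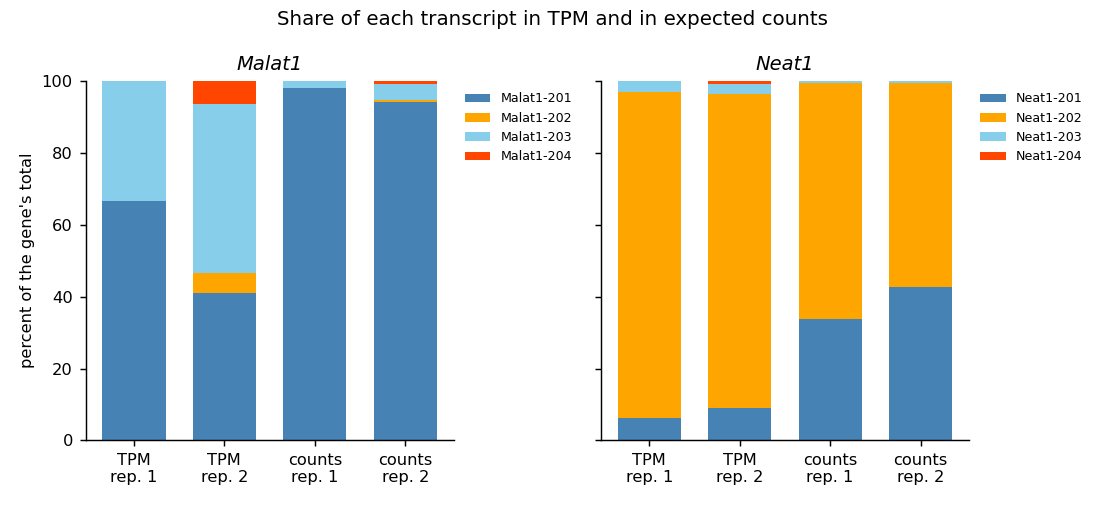
Stacked bars give the percent of the total of Malat1 (left panel) and Neat1 (right panel) assigned to each annotated transcript, in TPM and in expected counts, for replicate 1 and replicate 2. Malat1-203 takes 33.4% and 47.2% of Malat1 TPM but 1.83% and 4.33% of its counts, and Neat1-201 takes 6.33% and 8.91% of Neat1 TPM but 33.9% and 42.6% of its counts.

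The ends of Malat1 and of the long Neat1 transcript carry related sequence. The 100 bases of Malat1-201 directly before mascRNA (chr19:5795982-5796081) and the last 100 bases of Neat1-201 (chr19:5824708-5824807) are shown because both RNAs are known to be cut by RNase P and closed by a triple helix there. Capitals mark the 3 exact words of at least 10 bases that occur in both in the same order, 40 bases in all, the longest of 16 and the shortest of 11. The bases are in 5′ to 3′ order on the minus strand of mm10.
Malat1-201: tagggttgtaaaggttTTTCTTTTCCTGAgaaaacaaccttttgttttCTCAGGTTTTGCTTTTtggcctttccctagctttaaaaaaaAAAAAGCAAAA
Neat1-201: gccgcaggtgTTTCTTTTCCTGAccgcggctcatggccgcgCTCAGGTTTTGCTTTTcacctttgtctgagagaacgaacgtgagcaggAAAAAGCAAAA

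The words include the T-rich and A-rich runs that are known to pair in the triple helix. No AATAAA occurs in the last 100 bases of Neat1-201. What follows each end in the genome is shown next, mascRNA (chr19:5795924-5795981, 58 bases, position from RefSeq on GRCm38) after Malat1 and Gm27702 (chr19:5824652-5824707, 56 bases, annotated as a small RNA) after Neat1-201.
mascRNA: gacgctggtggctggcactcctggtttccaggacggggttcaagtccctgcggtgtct
Gm27702: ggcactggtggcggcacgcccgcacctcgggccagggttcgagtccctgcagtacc

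Aligned over their whole length, the pair had 40 identical bases, 16 mismatches and 2 gap positions. Gm27702 had 0 counts in both libraries of the gene-level tables and 7 and 4 counts in the second quantification. No entry for mascRNA was used here, and its bases lie within Malat1-201. The annotated Malat1-201 goes on for 292 bases from the first base of mascRNA, and the last exon shared by Malat1-202 and Malat1-204 begins 138 bases after mascRNA, so it lies beyond the known cut. That exon (chr19:5795691-5795785 in Malat1-202) is shown because the transcripts that use it had counts in replicate 2 and next to none in replicate 1.
Last exon of Malat1-202: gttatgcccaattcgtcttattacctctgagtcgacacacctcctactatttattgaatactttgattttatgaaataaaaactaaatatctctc

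The genes that process or read the Malat1 end were detected at low levels. Of 13 such genes, 11 had at least 1 TPM in both libraries, beside 44.4% of protein-coding genes, and 0 had at least 10 TPM, beside 19.7%, with medians of 3.51 and 2.88 TPM in replicates 1 and 2. The highest were 3 RNase P protein genes, Rpp21 (9.17 and 7.82 TPM), Rpp30 (5.11 and 5.98 TPM) and Pop4 (4.90 and 3.56 TPM). The lowest was Rpp25, with 0 counts in both libraries. The median of all protein-coding genes at 1 TPM or more was 9.34 and 9.07 TPM in replicates 1 and 2.

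Malat1 and Neat1 lie 22035 bases apart. Within 100 kb on either side lie 25 annotated genes, the pair included, 14 of them protein-coding and 11 of those at 1 TPM or more in both libraries, beside 44.4% of protein-coding genes. The highest was Ehbp1l1, at 76.5 and 56.0 TPM in replicates 1 and 2, followed by Slc25a45 at 57.7 and 41.8 TPM. Others were Dpf2, Map3k11, Pola2, Fam89b, Ltbp3, Cdc42ep2 and, at 1.06 and 1.08 TPM, Kcnk7. Frmd8, next to Neat1, had 5.89 and 5.63 TPM. In the gene-level tables Neat1 was above each of these genes except Malat1, in both libraries. Of those with a mean count of 100 or more, none differed 2-fold or more between libraries, beside 2.01% of genes.

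Among the DBHS proteins, a family of RNA-binding proteins that act as dimers and coat Neat1, Sfpq and Nono were at similar levels and Pspc1 was lower. Sfpq (ENSMUSG00000028820.13, chr4:127021324-127037013, plus strand), which is needed for paraspeckles to form in human cells, had 66.4 and 72.6 TPM in replicates 1 and 2 (69.5 ± 4.43, SD, n = 2) from 3365 and 3168 counts. Nono (ENSMUSG00000031311.17, chrX:101429318-101448591, plus strand), its usual partner, had 57.7 and 60.3 TPM (59.0 ± 1.89) from 2765 and 2422 counts. Pspc1 (ENSMUSG00000021938.12, chr14:56720710-56778316, minus strand), the family member that paraspeckles of human cells can form without, had 17.3 and 15.3 TPM (16.3 ± 1.39) from 1005 and 928 counts. In the second quantification, Sfpq had 36.3 and 48.0 TPM, Nono 27.6 and 37.0 TPM, and Pspc1 8.52 and 10.3 TPM.

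The gap between Pspc1 and the other DBHS genes was wider than the spread between libraries. The difference of Nono minus Pspc1 was 1.85 ± 0.17 on the log2(TPM + 0.1) scale (1.73 in replicate 1 and 1.97 in replicate 2), and that of Sfpq minus Pspc1 was 2.09 ± 0.21. Sfpq minus Nono was 0.23 ± 0.05 (0.20 and 0.27), and 0.38 ± 0.01 in the second quantification. The order of Sfpq and Nono depends on the length used: counts per kb of the longest transcript were 971 and 914 for Sfpq and 1079 and 945 for Nono, a difference of -0.10.

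Rbm14, a coactivator with prion-like domains that is needed for paraspeckles in human cells, was the lowest of the 5 protein genes. Rbm14 (ENSMUSG00000006456.10, chr19:4800569-4811634, minus strand) had 9.41 and 8.74 TPM in replicates 1 and 2 (9.08 ± 0.474, SD, n = 2) from 850 and 664 counts, and 4.09 and 4.52 TPM in the second quantification. Pspc1 minus Rbm14 was 0.84 ± 0.05 on the log2(TPM + 0.1) scale. Tardbp, which encodes the UG-binding protein TDP-43, had the highest mean TPM of the 5. Tardbp (ENSMUSG00000041459.15, chr4:148612382-148627019, minus strand) had 78.2 and 73.0 TPM in replicates 1 and 2 (75.6 ± 3.67) from 6586 and 5049 counts. It had 39.8 and 63.3 TPM in the second quantification. Tardbp minus Sfpq was 0.12 ± 0.16, a difference smaller than its spread in the gene-level tables. In the second quantification it was 0.27 ± 0.19, larger than its spread, but the values of the 2 genes overlapped between libraries. These gaps depend on the length used. Counts per kb of the longest transcript were 244 and 226 for Pspc1 and 242 and 189 for Rbm14, nearly equal in replicate 1. For Tardbp they were 881 and 675, below those of Sfpq (971 and 914) and Nono (1079 and 945) in both libraries.

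**Figure D3:**
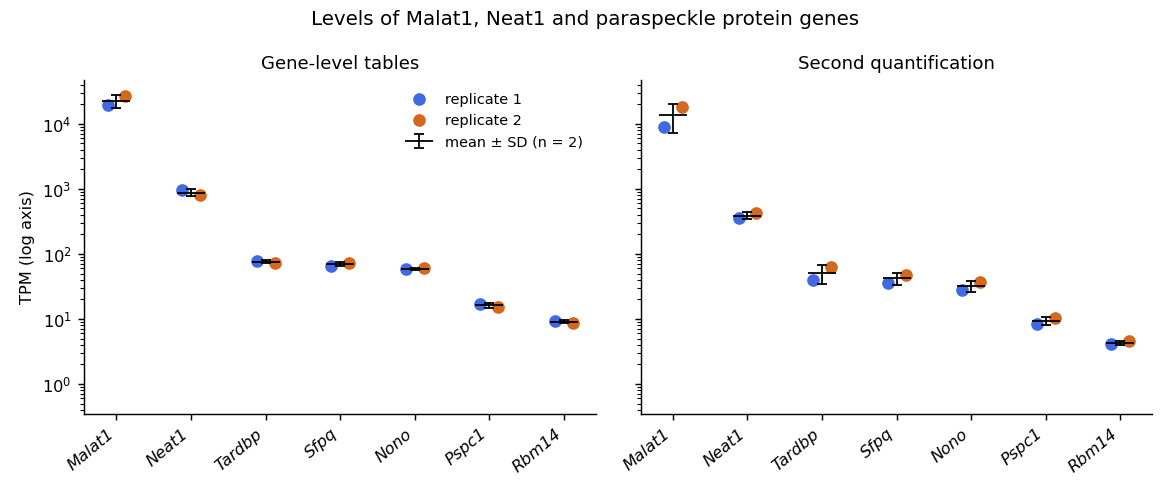
TPM of the 7 genes on a log axis in the gene-level tables (left panel) and in the second quantification (right panel), with a point for replicate 1 and replicate 2 and a bar for the mean ± SD. Malat1 and Neat1 lie above the 5 protein genes in both panels, from 19257 and 26338 TPM for Malat1 to 9.41 and 8.74 TPM for Rbm14 in the gene-level tables.

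All 5 protein genes were at 1 TPM or more in both libraries, beside 44.4% of 22028 protein-coding genes, and 4 of the 5 were at 10 TPM or more, beside 19.7%. By mean TPM among protein-coding genes, Tardbp was number 472, Sfpq 522, Nono 637, Pspc1 3124 and Rbm14 4948. In scaled counts, none of the 7 members differed 2-fold or more between the libraries, beside 2.01% of the 10198 genes whose mean count was 100 or more. In the TPM of the second quantification, Malat1 differed by more than 2-fold (9063 and 18327 TPM in replicates 1 and 2). The members' log2 ratios of scaled counts, replicate 1 over replicate 2, ran from -0.17 for Sfpq (-0.239 to -0.0982) to 0.17 for Malat1. Those of Nono (-0.144 to 0.0146) and Rbm14 (-0.0476 to 0.249) had counting intervals that include 0. The genes nearest in level over both libraries were mt-Co1 for Malat1 (10656 and 17975 TPM, a log2 distance of 1.02), Grn for Neat1 (1119 and 744 TPM, 0.25), and, within 0.03 each, Setd5 for Sfpq, Sh2b3 for Pspc1, Ankzf1 for Rbm14 and Mdm2 for Tardbp.

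The protein genes differed in which annotated transcripts held their RNA. Transcripts annotated as protein-coding held over 50% of TPM in both libraries for 4 of the 5, beside 72% of 9780 protein-coding genes with such transcripts. In the second quantification, for which no share over all genes was computed, it was 3 of the 5, since Nono had 46.3% and 47.2%. Rbm14 passes in both by its annotation, which holds no other type for it. In the transcript-level tables the exception was Sfpq, with 43.4% of TPM in replicate 1 and 43.6% in replicate 2. Its processed transcripts, which have no annotated reading frame, held 56.6% and 56.4%. A share over 50% for this class was found for 1 of the 3 members that have such transcripts, beside 4.06% of 4651 genes, whose median share was 5.09%. In counts the order was the other way round, with 80.2% and 79.6% in the single protein-coding transcript Sfpq-201.

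Sfpq-201 had 28.8 and 31.6 TPM in replicates 1 and 2, from 2700 and 2520 counts. The leading processed transcripts were Sfpq-204 at 15.6 and 16.6 TPM, from 333 and 306 counts, and Sfpq-206 at 9.78 and 13.2 TPM, from 196 and 230 counts. Their annotated lengths are 967 and 925 bases, against 3465 for Sfpq-201. Sfpq also overlaps Gm12940 on the same strand, which had 208 and 179 counts, and 723 and 732 in the second quantification. The division of reads between them is therefore uncertain.

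Nono held 44.2% of its TPM in replicate 1 and 43.6% in replicate 2 in retained-intron transcripts (43.9% ± 0.391, SD, n = 2). The median over 6143 protein-coding genes with such a transcript was 29.2% in replicate 1 and 30.7% in replicate 2. In counts the share was 22.1% and 22.5%, and in the TPM of the second quantification it was 53.3% and 50.5%. The protein-coding Nono-201 had 31.9 and 32.5 TPM, and the retained-intron Nono-202 had 8.43 and 6.62 TPM and Nono-205 had 9.41 and 5.43 TPM. The shares of the class agreed between libraries more closely than those of its single transcripts. Processed pseudogenes Gm8806 and Gm5171 share 16.8% and 11.5% of the 31-base words of Nono, with 0 and 6.02 counts for Gm8806 and 45.1 and 44.2 counts for Gm5171.

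Pspc1 had 31.5% of TPM in its retained-intron transcript in replicate 1 and 11.0% in replicate 2. The transcript, Pspc1-203, had 5.44 and 1.68 TPM from only 46.5 and 12.9 counts, so the share rests on few reads. The protein-coding Pspc1-202 had 5.48 and 6.02 TPM and Pspc1-201 had 4.64 and 5.25 TPM. Pspc1 shares no 31-base word with the transcripts of another gene, and the longest exact run between transcripts of the DBHS genes was 22 bases for Sfpq and Nono, 14 for Sfpq and Pspc1 and 17 for Nono and Pspc1.

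All 3 annotated transcripts of Rbm14 are protein-coding, so the annotation alone fixes the share of that type. Rbm14-201 had 4.42 and 5.01 TPM in replicates 1 and 2, and Rbm14-202 had 4.98 and 3.74 TPM, so the order of the pair differed between libraries. Gm21992, an annotated protein-coding gene on the same strand, shares 16.5% of the 31-base words of Rbm14 and had 331 and 213 counts. On the opposite strand, Gm21844 had 2.94 and 3.41 counts, against 128 and 179 in the second quantification. The level of Rbm14 is uncertain to the extent that reads of these genes were divided.

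Tardbp has 30 annotated transcripts, of which 13 had 0 counts in both libraries of the transcript-level tables. The share of such transcripts over all genes was not computed. Tardbp-225, among these 13, had 51.1 and 108 counts in replicates 1 and 2 of the second quantification. TDP-43 is known to lower its own mRNA by binding near its 3′ end. The 10 transcripts annotated as targets of nonsense-mediated decay held 36.9% of TPM in replicate 1 and 42.3% in replicate 2, and 12.5% and 13.7% of counts. The median share of TPM over 3050 genes with such a transcript was 3.48%, and the share was over 50% for 0 of the 2 members with one, beside 2.36% of those genes. In the second quantification, the decay targets of Tardbp held 31.3% and 30.7% of TPM in replicates 1 and 2. The long protein-coding Tardbp-202, of 7477 bases, had 22.0 and 20.3 TPM from 4633 and 3622 counts. Tardbp-204 had 22.1 and 15.1 TPM, and the decay target Tardbp-208 had 14.1 and 24.2 TPM. The decay target Tardbp-228 went the other way, with 13.5 and 4.61 TPM. Of 31-base words found in no other Tardbp transcript, Tardbp-208 has 0 and Tardbp-228 has 26, so the division of reads among them is uncertain. Masp2 overlaps Tardbp on the opposite strand and had 1 count in each library, against 44.6 and 71.1 in the second quantification.

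**Figure D4:**
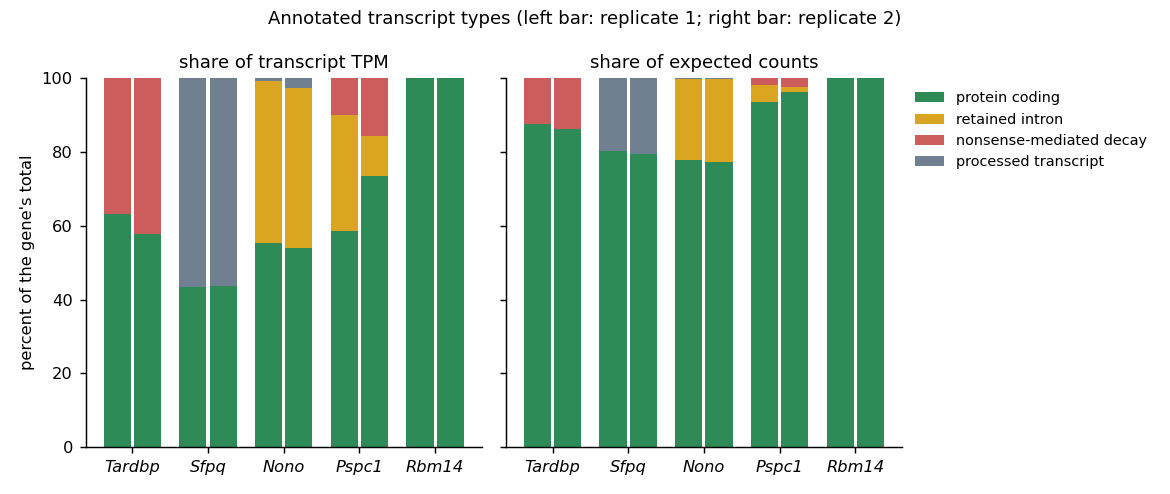
Percent of each gene's transcript TPM (left panel) and expected counts (right panel) held by annotated transcript types, with replicate 1 as the left bar and replicate 2 as the right bar of each pair. Sfpq shows 56.6% and 56.4% of TPM in processed transcripts and Nono 44.2% and 43.6% in retained-intron transcripts. Protein-coding transcripts, the only type annotated for Rbm14, hold most counts in all 5 genes.

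Over 50% of TPM in retained-intron transcripts was found for 0 of the 3 members that have one, beside 15.4% of the 6143 genes. At the level of single transcripts, of 21 member transcripts with a mean count of at least 100, 4 differed 2-fold or more (Malat1-202, Malat1-203, Malat1-204 and Tardbp-228), beside 9.02% of 17667 transcripts. Malat1-203 had a log2 ratio of -1.07, replicate 1 over replicate 2, and Tardbp-228 had 1.51 from 460 and 135 counts. In the second quantification these were -0.82 and 0.57. There, 6 of 28 member transcripts passed, beside 9.05% of 28326, and Malat1-202 and Malat1-204 were the only 2 that passed in both.

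Because TDP-43 binds UG repeats and is known to act on the choice of Neat1 transcript, the motif TGTGTG was counted in the RNA strand, without overlaps. Neat1-201 holds it 33 times (1.59 per kb), against a median of 0.400 per kb over 64 annotated transcripts of similar length, of which 90.6% hold the motif at least once and 96.9% hold fewer per kb. The opposite strand of Neat1-201 reads it 21 times. Malat1-201 holds it 3 times (0.430 per kb, 1 on the opposite strand), beside a median of 0.516 per kb and 94.3% of transcripts of its length with the motif. These counts describe the sequence and were not measured as binding.

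Further paraspeckle protein genes were examined as a list. Of 36 such genes, 30 were at 1 TPM or more in both libraries, beside 44.4% of protein-coding genes, 21 were at 10 TPM or more, beside 19.7%, and 5 below 1 TPM in both. The medians were 20.5 and 21.3 TPM in replicates 1 and 2. The highest were the RNA-binding protein genes Ewsr1 (164 and 135 TPM), Hnrnph1 (115 and 120 TPM) and Hnrnpm (115 and 113 TPM), and Dlx3 and Fign had 0 counts in both. Hnrnpk, a splicing factor gene that acts on the choice of Neat1 end in human cells, had 97.3 and 120 TPM. Of the 30 whose mean count was 100 or more, 0 differed 2-fold or more, beside 2.01% of genes.

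The 12 nuclear speckle protein genes were all at 10 TPM or more in both libraries, beside 19.7% of protein-coding genes, with medians of 93.1 and 101 TPM in replicates 1 and 2. The core speckle genes Son (185 and 181 TPM) and Srrm2 (164 and 130 TPM) and the splicing factor gene Srsf2 (140 and 157 TPM) were highest, and Rnps1 (19.5 and 25.4 TPM) was lowest. None differed 2-fold or more, beside 2.01% of genes. The median of the 5 protein members, 57.7 and 60.3 TPM in replicates 1 and 2, lay between those of the 2 lists in both libraries.

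**Figure D5:**
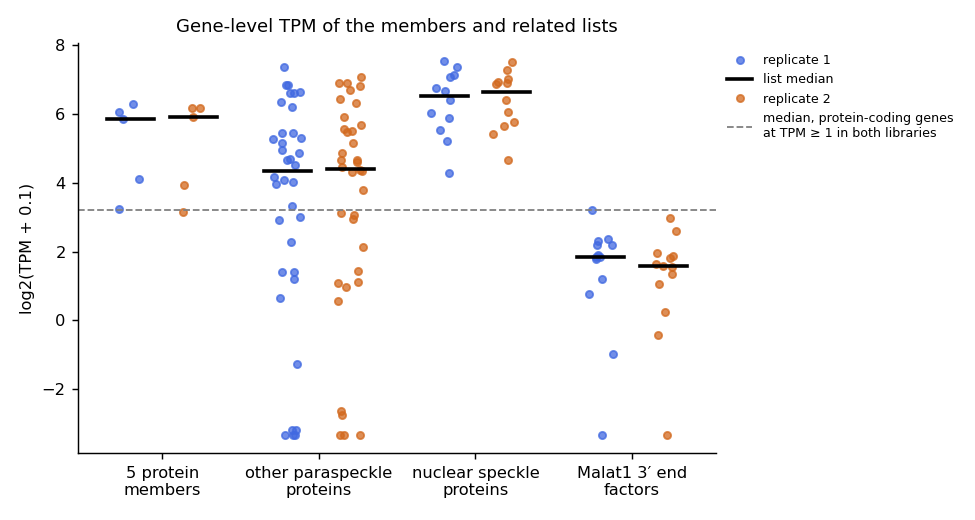
Gene-level log2(TPM + 0.1) of the 5 protein members, the 36 other paraspeckle protein genes, the 12 nuclear speckle protein genes and the 13 genes that act on the Malat1 3′ end, with a point per gene, replicate 1 left of replicate 2 and a black line at each list's median. The dashed line is the median of protein-coding genes at 1 TPM or more in both libraries, and the medians of the first 3 lists lie above it and that of the last below it.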

How the data were processed

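The 7 members and all lists were chosen with earlier results of these data known. The deposited gene-level and transcript-level tables hold the authors' expected counts and TPM, percent isoform shares, and posterior SDs and interval bounds of the same values, a signal per gene or transcript. The authors' second quantification holds estimated counts and TPM. Per the file headers and the notes deposited beside the files, the assembly is mm10 and the annotation GENCODE mouse release M21. Which programs made the values, in which versions and with which strand setting, is not given in the sources used here.

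Expected counts were rounded. The 26345 entries without a gene (1.01% of counts in replicate 1 and 0.336% in replicate 2) were left out of library sizes. Nearly all of these counts came from 1 of 97 entries named as spike-ins, with 233489 in replicate 1 and 62782 in replicate 2. Log2 ratios of replicate 1 over replicate 2 used edgeR 4.0.16 TMM factors from 14892 genes past filterByExpr in R 4.3.3, with a prior count of 0.5. DESeq2 1.42.0 size factors were an alternative. A gene differed between libraries where the log2 ratio was at least 1 in absolute size and the mean count 100 or more. Levels used log2(TPM + 0.1). Shares of transcript types are parts of a gene's summed transcript TPM or counts. The second quantification was summed per gene and totalled 30419009 counts in replicate 1 and 32279044 in replicate 2. It lacks 86 of the genes. Ratios were tested on simulated data. With 1 group, no p-value was made, and n = 2 limits every SD.

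All members were named, with the 3 highest, the lowest and the zero-count members of each list, the leading transcripts, the neighbours, the overlapping genes and the gene nearest in level. Some genes under this rule are not reported here. Hnrnpk, Tardbp-225 and Tardbp-228 were named after their values were seen. Sequences came from GENCODE transcripts and RefSeq positions on GRCm38. Python 3.11.15, pandas 2.3.3, scipy 1.17.1 and Biopython 1.88 were used.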

Additional observations from a re-analysis of the deposited data

How the results depend on the processing

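Of 43 alternatives over 9 results, 32 gave the same outcome, 10 moved the value and 1 reversed it. A value was called the same where it lay closer to the main value than the SD between libraries. With n = 2 this holds for any omitted replicate, so those omissions could never count as moved. A count had a looser rule, under which 21 further paraspeckle genes at 10 TPM was the same as 30 at 1 TPM. Lowering the minimum mean count could not add a member, since all members were already above it. With the second quantification, the share of counts was 8.31% for Malat1 and 0.366% for Neat1, Sfpq minus Nono was 0.38, and 1 protein gene (Nono) had over 50% of TPM in retained-intron transcripts. For retained introns, no share over all genes was computed with that quantification. With nuclear protein-coding and long noncoding genes as the denominator, the shares of counts were 12.6% for Malat1 and 0.538% for Neat1. In counts per kb of the longest transcript, Malat1 minus Neat1 was 6.12, Nono minus Pspc1 was 2.11, and Sfpq minus Nono was reversed at -0.10. Its length differs from that of TPM by construction. As a share of counts, Neat1-201 made up 38.3%, since it is the longest transcript. With a threshold of 30%, 1 protein gene (Nono) passed for retained introns. No share over all genes was computed at that threshold. The median over genes with such a transcript was near it, at 29.2% in replicate 1 and 30.7% in replicate 2. No member passed as different between libraries under any of the 6 alternatives run for that count, a log2 threshold of 0.5 among them. All 6 used counts rather than TPM, in which Malat1 differed by more than 2-fold in the second quantification. Leaving out a replicate gave 10.2 to 11.2% for Malat1, 0.452 to 0.462% for Neat1, 4.34 to 5.04 for Malat1 minus Neat1, 0.20 to 0.27 for Sfpq minus Nono, 1.73 to 1.97 for Nono minus Pspc1, 6.33 to 8.91% for Neat1-201, 30 to 31 for further paraspeckle genes at 1 TPM, and 0 for retained introns. For the other shifts, the cause was not tested. No paired analysis was possible because the series has 1 group.

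By counts, Malat1 ranked 1 and Neat1 ranked 15 in each library. The division of reads between their transcripts, which share sequence, is uncertain, and the effect of depth was not tested. Pspc1-203 rests on few counts, and most Tardbp transcripts, the leading ones included, share nearly all of their sequence with others of the gene. Levels of different genes were compared only within a quantification.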
